A study of Mus musculus with 4 samples.

Results

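The 6 T cell chemokine genes Ccl1, Ccl3, Ccl4, Ccl5, Ccl9 and Xcl1 were taken by symbol from the 16338 genes of a mouse T cell RNA sequencing experiment, and all 6 are listed in every library, Ccl1 with 0 reads in 2 of them. The T cells, from a study of CD8 T cell responses, had either the TRP1high or the TRP1low T cell receptor (TCR). B cells loaded with peptide M9 or K8 stimulated them for 48 h, after which they were sorted away from the B cells. The 4 groups were TRP1high with M9, TRP1high with K8, TRP1low with M9 and TRP1low with K8, and B cells presented the peptide in all of them. With 1 library per group there were no replicates, so the spread between cultures is unknown for every difference given here.

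Chemokines are small secreted proteins that draw other leukocytes toward their source by binding receptors on their surface. CD8 T cells that meet antigen release several of them together with interferon gamma. Ccl3 and Ccl4 (the macrophage inflammatory proteins MIP-1 alpha and MIP-1 beta) and Ccl5 (RANTES) draw effector T cells, monocytes and macrophages. Xcl1 (lymphotactin) is the ligand of XCR1, a receptor of cross-presenting dendritic cells. Ccl9 (MIP-1 gamma) is a rodent ligand of CCR1, and Ccl1 (TCA-3) is a ligand of CCR8.

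Values are normalized counts as deposited on a log2 scale with 1 added, and a library's 1 read was worth 0.990 normalized counts in TRP1high with M9, 0.998 in TRP1high with K8, 1.05 in TRP1low with M9 and 1.37 in TRP1low with K8. The libraries held 41.5 M, 40.5 M, 40.3 M and 29.6 M estimated reads in that order, and 3 reads served as a floor: no fold is given where both libraries are at or under it, and a fold against 0 reads is a bound against it. TRP1low with K8 was the shallowest, with 1205 genes at 0 against 633 to 769 in the other libraries, and it can be left out only from the comparisons that do not contain it (M9 against K8 in TRP1high, and TRP1high against TRP1low with M9). Cd8a, the CD8 alpha chain, stood between log2 14.33 and 15.14 and the other 7 CD8 T cell markers between 11.92 and 14.54, while Cd4 was at most at 4.73. B cell transcripts were also present in every library and are given with the peptide comparison. In these bulk samples, fewer cells of a type and less RNA per cell cannot be told apart.

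All 6 genes are protein coding, and 5 lie on chromosome 11 (GRCm38, the build also called mm10). Ccl5 (83525778 to 83530518), Ccl9 (83572919 to 83578636), Ccl3 (83647844 to 83649355) and Ccl4 (83662584 to 83664683) form a cluster in which Ccl3 and Ccl4 are 13.2 kb apart and lie on opposite strands. Ccl1 is 1220.1 kb from Ccl5 by its GENCODE gene model (82176657 to 82305690). Its RefSeq model (82176666 to 82179812) is shorter and lies further from Ccl5. Xcl1 is on chromosome 1 (164931644 to 164935527). RefSeq also has a Ccl4 gene span that begins at 83648624, inside Ccl3, and whether the authors' counting used strand is not given in the sources used here. Reads in that overlap could therefore belong to either gene.

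Upstream sequences were available for 4 of the 6 genes and are shown beside each gene's pattern over the libraries. Ccl3 was higher with M9 in both TCRs, and Ccl1 was above the floor in TRP1low with K8 alone. Xcl1 and Ccl9 were both low in TRP1high with K8 alone. In TRP1low, M9 and K8 were under 2-fold apart for both genes, with Xcl1 1.51-fold lower with M9. Each run is the 250 bases before the gene's RefSeq start (GRCm38.p6, minus strand, written 5′ to 3′ along the gene), and capitals mark matches to the motifs named after the sequences.
Ccl3 chr11:83649379-83649628: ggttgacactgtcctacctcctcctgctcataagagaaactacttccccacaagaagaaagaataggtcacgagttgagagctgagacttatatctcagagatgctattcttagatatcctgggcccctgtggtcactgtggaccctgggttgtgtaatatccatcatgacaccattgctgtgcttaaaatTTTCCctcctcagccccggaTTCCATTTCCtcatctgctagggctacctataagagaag
Xcl1 chr1:164935523-164935772: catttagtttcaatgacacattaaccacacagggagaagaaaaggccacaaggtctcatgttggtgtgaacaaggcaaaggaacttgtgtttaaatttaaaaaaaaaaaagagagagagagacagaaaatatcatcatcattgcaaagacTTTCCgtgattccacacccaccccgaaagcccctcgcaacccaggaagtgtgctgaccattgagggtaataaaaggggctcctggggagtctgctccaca
Ccl9 chr11:83578637-83578886: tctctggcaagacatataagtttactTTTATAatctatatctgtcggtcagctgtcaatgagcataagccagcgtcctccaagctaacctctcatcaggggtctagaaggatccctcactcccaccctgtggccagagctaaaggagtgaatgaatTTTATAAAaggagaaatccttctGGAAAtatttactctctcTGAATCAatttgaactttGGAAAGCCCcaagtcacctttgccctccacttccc
Ccl1 chr11:82179813-82180062: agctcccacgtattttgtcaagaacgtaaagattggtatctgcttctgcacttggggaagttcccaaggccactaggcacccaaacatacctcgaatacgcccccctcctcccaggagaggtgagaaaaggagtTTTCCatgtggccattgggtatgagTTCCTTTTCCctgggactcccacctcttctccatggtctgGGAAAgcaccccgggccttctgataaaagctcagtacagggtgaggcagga

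Windows of 300 bases, with 50 bases after the start, were searched on both strands for the NFAT core GGAAA, AP-1 TGANTCA, the CRE core TGACG, NF-kB GGGNNTTCC, ISRE GAAANNGAA and the TATA box TATAAA. The NFAT core was found in all 4, once in Xcl1 and 2, 2 and 3 times in Ccl3, Ccl9 and Ccl1, and it stands in 61.3% of all 32851 windows. AP-1, in 7.81% of all windows, and NF-kB, in 5.82%, were found in Ccl9 alone among the 4, at positions -53 and -35 from its start, and the NF-kB match overlaps an NFAT core. ISRE matches, in 8.56% of all windows, lay at position -39 of Ccl3 and position -91 of Ccl1, each overlapping an NFAT core. TATA box matches, in 13.6% of all windows, were found in Ccl9, of which 2 overlap, and no CRE core, in 20.8%, was found in these windows. A match describes the letters and does not show that a factor was bound.

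The first comparison asks how chemokine transcripts differed between stimulation with the M9 and with the K8 peptide. Ccl3 and Ccl4 were higher with M9 in both TCRs, while Xcl1 and Ccl9 were over 2-fold higher in TRP1high and under 2-fold apart in TRP1low. Ccl5 was under 2-fold apart in both, and Ccl1 had 0 reads with M9 in TRP1low. In TRP1high, M9 stood 2-fold or more above K8 for 4 of the 6 genes and below it for 0, where 5.14% of the 16102 genes tested were higher and 4.73% lower. In TRP1low this held for 2 genes above and 1 below, against 7.67% and 7.43% of all genes tested. The median log2 difference of the 6 genes was 3.11 in TRP1high and -0.09 in TRP1low, against -0.02 and 0.02 over all genes tested.

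**Figure D1:**
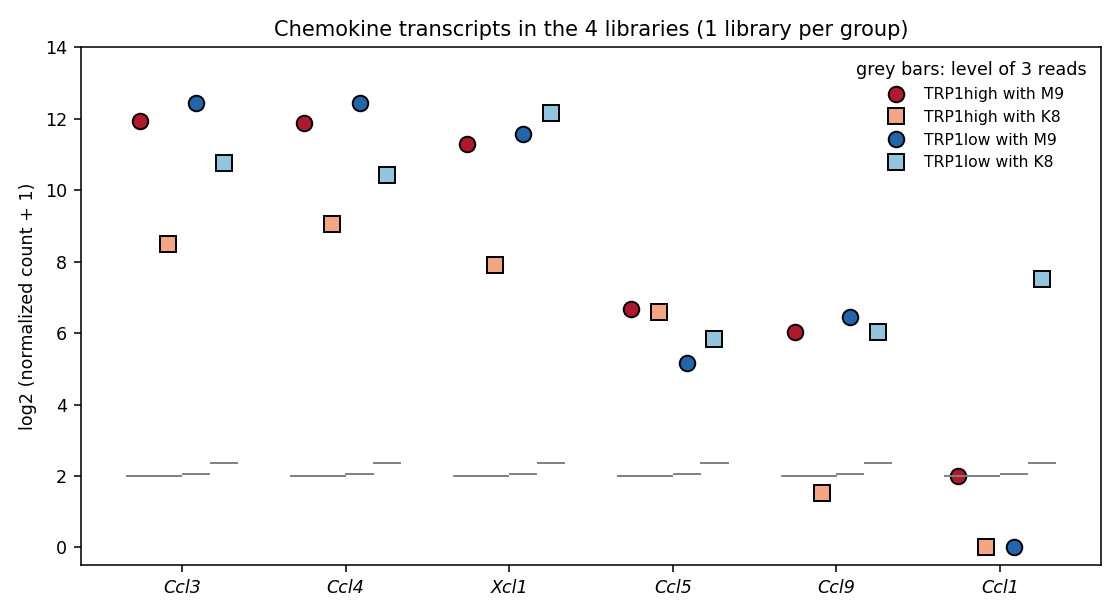
Level of each chemokine gene in each library, as log2 of the normalized count plus 1, with circles for M9 and squares for K8, and grey bars at the level of 3 reads. Ccl3 and Ccl4 are highest in the M9 libraries, Xcl1 is highest in TRP1low with K8 (12.16), and Ccl1 is above the floor in TRP1low with K8 alone (7.51).

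Ccl3 stood at log2 11.93 in TRP1high with M9 and at 8.49 in TRP1high with K8, and at 12.44 in TRP1low with M9 and 10.76 in TRP1low with K8. It was 10.9-fold higher with M9 in TRP1high (95% exact counting interval 9.77 to 12.2) and 3.20-fold higher in TRP1low (3.01 to 3.41). The intervals given for folds and shares describe counting error alone and take rounded reads as independent. As no molecular identifiers were counted, they may be too narrow. Both M9 libraries were above both K8 libraries, and the K8 library of TRP1high was the lowest of the 4.

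Ccl4 stood at 11.87 and 9.06 with M9 and K8 in TRP1high, and at 12.45 and 10.43 with M9 and K8 in TRP1low. It was 7.07-fold higher with M9 in TRP1high (6.45 to 7.75) and 4.08-fold higher in TRP1low (3.81 to 4.37), again with both M9 libraries above both K8 libraries. Ccl3 and Ccl4 were the 2 members past 2-fold with M9 in both TCRs, as were 1.58% of all genes tested. The ratio of their normalized counts, Ccl3 over Ccl4, was 1.04 in TRP1high with M9 (0.992 to 1.08) and 0.673 in TRP1high with K8 (0.587 to 0.771), and 0.993 in TRP1low with M9 (0.955 to 1.03) and 1.26 in TRP1low with K8 (1.16 to 1.37). The ratio was lower in TRP1high with K8, and higher in TRP1low with K8, than in either M9 library, with intervals that did not overlap. It is not corrected for transcript length (766 bases for Ccl3, 660 for Ccl4), so its distance from 1 does not compare the levels of the pair.

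Xcl1 stood at 11.30 with M9 and 7.90 with K8 in TRP1high, and at 11.56 with M9 and 12.16 with K8 in TRP1low. It was 10.6-fold higher with M9 in TRP1high (9.28 to 12.2) and 1.51-fold lower in TRP1low (1.44 to 1.59). Both TRP1low libraries and the M9 library of TRP1high lay within 1 log2 unit of each other, and the K8 library of TRP1high lay over 3 units below them.

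Ccl9 had 65 reads with M9 and 2 with K8 in TRP1high, and 83 with M9 and 47 with K8 in TRP1low. The M9 to K8 ratio of normalized counts was 33.6 in TRP1high (8.57 to 272), a width set by the 2 reads, and 1.34 in TRP1low (0.936 to 1.98). As with Xcl1, TRP1high with K8 was the library apart from the other 3, and the Ccl9 level there was under the floor.

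Ccl5 stood at 6.68 with M9 and 6.60 with K8 in TRP1high, and at 5.16 with M9 and 5.84 with K8 in TRP1low, from 33 to 103 reads a library. Its ratio of M9 to K8 was 1.06 in TRP1high (0.798 to 1.42) and 0.617 in TRP1low (0.378 to 1.0006), so that neither interval lay clear of 1. Both TRP1high libraries were above both TRP1low libraries, whichever the peptide.

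Ccl1 had 3 reads with M9 and 0 with K8 in TRP1high, and 0 with M9 and 133 with K8 in TRP1low. Against a floor of 3 reads in the M9 library of TRP1low, Ccl1 was lower by at least 57.7-fold there than in the K8 library. One library therefore held nearly all Ccl1 reads of the experiment.

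**Figure D2:**
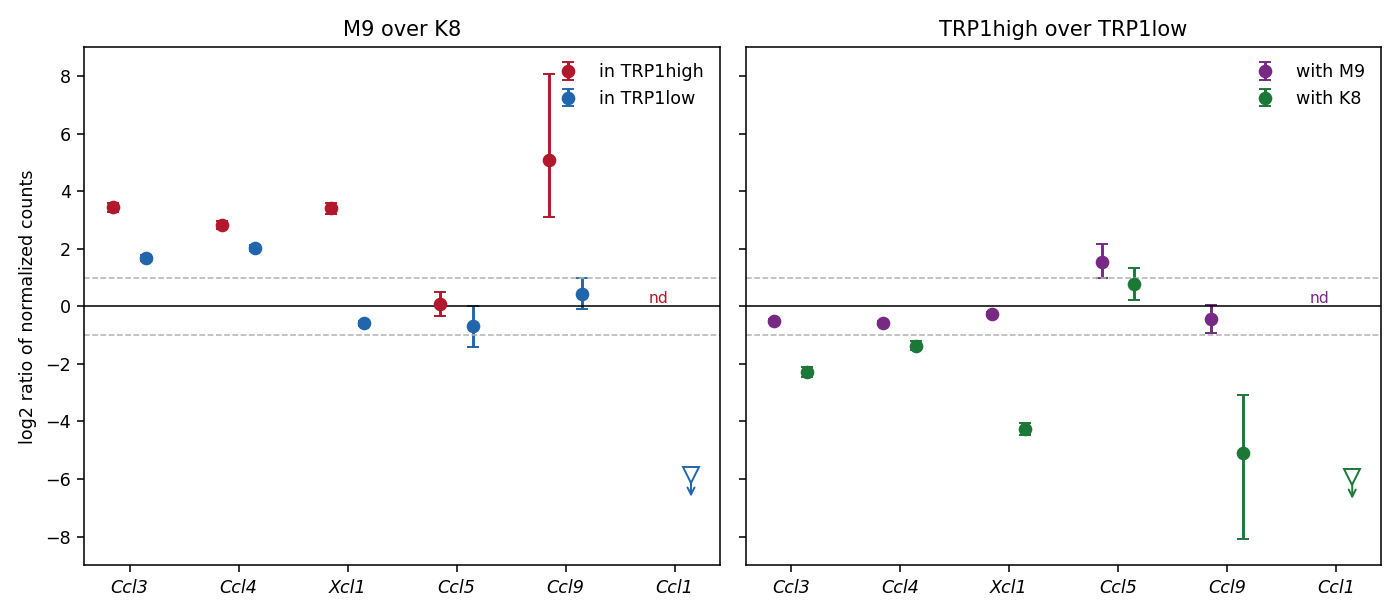
Log2 ratio of normalized counts for M9 over K8 (left) and TRP1high over TRP1low (right), with bars for the 95% counting interval, dashed lines at 2-fold, open triangles with arrows for bounds against a library at 0, and "nd" where both libraries were at or under the floor. Ccl3 and Ccl4 lie above the 2-fold line in both TCRs on the left, and on the right the ratios with K8 lie further below 0 than those with M9 for Ccl3, Ccl4, Ccl9 and Xcl1.

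Markers of other cells differed along with these genes, and their part in the differences was not tested. The sum over 16 B cell markers was below that of K8 in each TCR, at 1599 with M9 against 4507 normalized counts with K8 in TRP1high and 1141 with M9 against 3189 with K8 in TRP1low. Of the 16, 15 were past 2-fold below and 0 above in TRP1high, and 7 below and 2 above in TRP1low. Over all genes tested, 4.73% were below and 5.14% above in TRP1high, and 7.43% below and 7.67% above in TRP1low. The sum was highest in TRP1high with K8, the library with the lowest Ccl3, Ccl4, Xcl1 and Ccl9. In TRP1high with M9, 3 of the 16 markers were at 0, Pax5 and Cr2 among them, while H2-Ab1 had 681 reads, Cd74 655, Cd79b 107 and Ighd 103. The library with Ccl1, TRP1low with K8, also held the most transcript of erythroid and platelet genes: 4 measured markers summed to 26.7 normalized counts with M9 and 4.80 with K8 in TRP1high, and to 4.23 with M9 and 488 with K8 in TRP1low. The 9 measured myeloid or dendritic markers summed to 376 with M9 and 231 with K8 in TRP1high, and to 151 with M9 and 440 with K8 in TRP1low, with Siglech at 0 in both M9 libraries and Csf1r at 0 in TRP1high with K8. The most abundant of them were Mpeg1, with 256 reads with M9 and 154 with K8 in TRP1high and 60 with M9 and 146 with K8 in TRP1low, and Cd68, with 109, 51, 55 and 63 reads in the same order. Sums over all 4 libraries ranged from 569 to 1595 for 3 NK or gamma delta T cell markers, from 2712 to 7055 for 5 plasma cell markers and from 45.7 to 137 for 4 CD4 T cell markers. Single markers differed more than these sums. In the same order, Xbp1 had 5588, 6359, 5995 and 1646 reads, Mzb1 1, 59, 1 and 63, and Jchain 5, 31, 1 and 36. Past 2-fold, 0 plasma cell markers were above K8 and 3 below in TRP1high, and 1 above and 2 below in TRP1low. Tcrg-C1 had 106, 910, 2 and 7 reads, and Trdc 469, 677, 758 and 862.

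**Figure D3:**
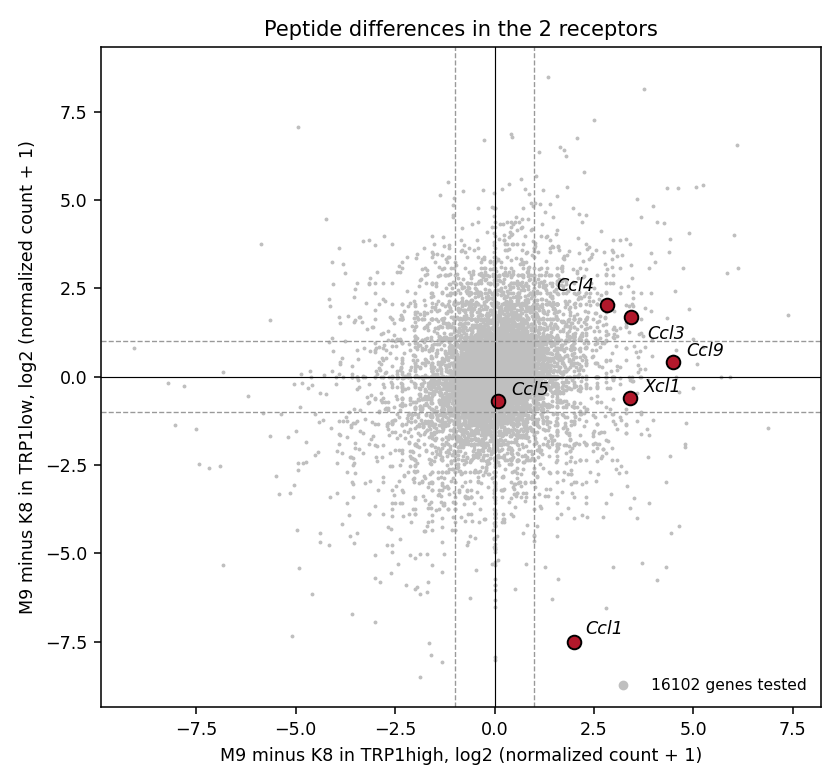
M9 minus K8 difference of each gene in TRP1high (horizontal) and in TRP1low (vertical), on the log2 (normalized count + 1) scale, for 16102 genes in grey and the 6 chemokine genes in red, with dashed lines at 2-fold. Ccl3 and Ccl4 lie past 2-fold in both directions of higher with M9, Xcl1 and Ccl9 past it in TRP1high alone, and the TRP1high value of Ccl1 (1.99) comes from 3 reads against 0.

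Among the 16102 genes tested, 0.56% had a higher M9 minus K8 difference than Ccl3 in TRP1high, 1.11% than Ccl4, 0.59% than Xcl1 and 0.17% than Ccl9. In TRP1low, 6.83% had a higher difference than Ccl3 and 5.25% than Ccl4, while 82.2% were above Xcl1.

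The second comparison set TRP1high against TRP1low under each peptide. With M9, the TCRs were less than 2-fold apart for Ccl3, Ccl4, Xcl1 and Ccl9. With K8, TRP1high was lower by 2-fold or more for these genes and Ccl1. With M9, TRP1high stood past 2-fold above TRP1low for 1 of the 6 genes and below it for 0, where 7.37% of the genes tested were higher and 5.58% lower. With K8, 0 were past 2-fold above and 5 below, where 10.6% of the genes tested were higher and 8.35% lower. The median log2 difference of the members was -0.35 with M9 and -3.27 with K8, or -3.16 once lower values were set to the floor, against -0.03 and -0.00 over all genes tested.

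Xcl1 was 19.2-fold lower in TRP1high than in TRP1low with K8 (16.8 to 22.0) and 1.197-fold lower with M9 (1.13 to 1.26). Ccl3 was 4.86-fold lower with K8 (4.32 to 5.48) and 1.43-fold lower with M9 (1.37 to 1.49). Ccl4 was 2.59-fold lower with K8 (2.33 to 2.88) and 1.49-fold lower with M9 (1.43 to 1.56). All 3 were lower in TRP1high under each peptide, with counting intervals of the fold clear of 1.

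Ccl9 was 34.0-fold lower in TRP1high with K8, with an interval of 8.43 to 274 from 2 reads, and its ratio of TRP1high to TRP1low with M9 was 0.737 (0.526 to 1.03). With K8, Ccl1 was lower by at least 60.6-fold in TRP1high, and with M9 neither library was above the floor. Ccl5 ran the other way: it was 2.93-fold higher in TRP1high with M9 (1.97 to 4.50) and 1.71-fold higher with K8 (1.17 to 2.53).

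The third comparison took the M9 minus K8 difference in TRP1high minus that in TRP1low, which has no test with 1 library a group. It was past 2-fold above 0 for 4 members and below for 0, where 9.07% of the genes tested were higher and 9.68% lower. It was 3.996 log2 for Xcl1 (counting interval 3.79 to 4.20), 4.07 for Ccl9 (1.97 to 6.16), 1.76 for Ccl3 (1.58 to 1.94), 0.79 for Ccl4 (0.63 to 0.95) and 0.76 for Ccl5 (-0.01 to 1.54). With a pseudocount of 10, the value of Ccl9, which rests on 2 reads in TRP1high with K8, was 2.26. The value of Ccl1, 9.50, rests on 3 libraries at or under the floor and became 5.45 with those values raised to it. Xcl1 had opposite signs in the TCRs, 3.40 in TRP1high and -0.60 in TRP1low, both with counting intervals of the fold clear of 1. The comparisons of peptide and of TCR use the same 4 libraries, so their values are not independent.

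For the peptide over both TCRs, limma's additive model gave M9 minus K8 differences of 2.42 log2 for Ccl4 (SE 0.32, Benjamini-Hochberg adjusted p = 0.58) and 2.56 for Ccl3 (SE 0.60, adjusted p = 0.59), both above K8 in 2 of 2 pairs. For the TCR over both peptides, limma gave 1.14 for Ccl5 (SE 0.31, adjusted p = 0.39), -0.97 for Ccl4 (SE 0.32, adjusted p = 0.41) and -1.40 for Ccl3 (SE 0.60, adjusted p = 0.44). An unadjusted limma p under 0.05 was seen for 2 of the 6 members by peptide and 1 by TCR, against 8.33% and 12.7% of all genes tested, and 0 of 16102 genes passed adjustment in either. The model has 1 residual degree of freedom, so its p-values measure the disagreement between the pairs of libraries and not the spread between cultures.

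Per length of transcript, which allows levels of different genes to be compared, Ccl4, Ccl3 and Xcl1 led in that order in 3 libraries and Xcl1 led in TRP1low with K8. In TRP1high with M9 the levels were 5686 normalized counts per kb for Ccl4, 5082 for Ccl3 and 4834 for Xcl1, against 191 for Ccl5, 21.2 for Ccl9 and 5.79 for Ccl1. In TRP1high with K8 they were 805 for Ccl4, 467 for Ccl3 and 456 for Xcl1, with Ccl5 at 180. In TRP1low with M9 they were 8496 for Ccl4, 7265 for Ccl3 and 5788 for Xcl1, with Ccl5 at 65.2. In TRP1low with K8 the order was Xcl1 (8748), Ccl3 (2268), Ccl4 (2083), Ccl1 (353), Ccl5 (106) and Ccl9 (21.5). Which neighbours in these orders differ beyond the spread between cultures could not be said, with 1 library each.

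**Figure D4:**
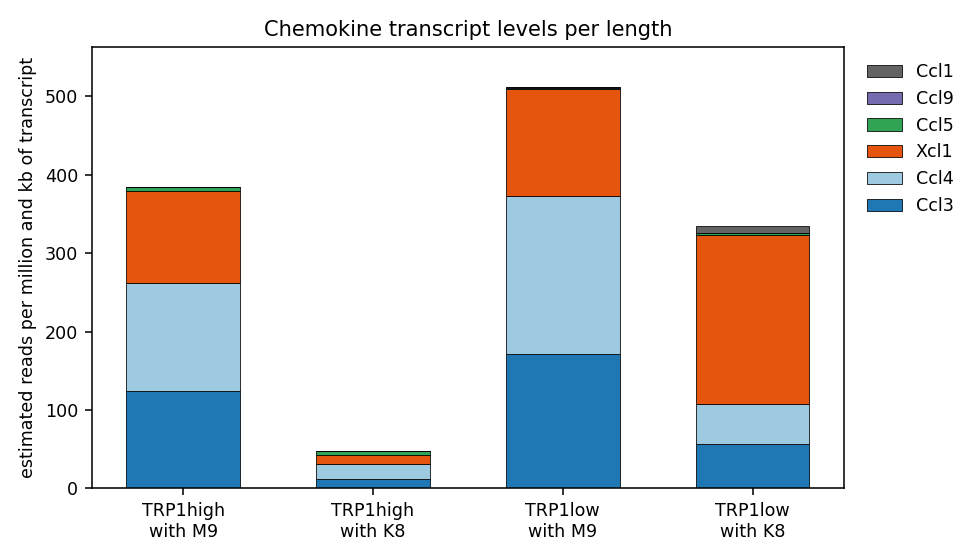
Estimated reads per M reads and kb of transcript for the 6 chemokine genes, stacked, in each library. TRP1high with K8 is the lowest bar, Ccl3 and Ccl4 make up most of the bars with M9, and Xcl1 (216 on that scale) makes up most of the bar of TRP1low with K8.

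Set among the 13228 tested genes with a transcript length, the level of Ccl3 per kb was at percentile 95.5 in TRP1high with M9 and 65.8 in TRP1high with K8, and at 97.0 in TRP1low with M9 and 89.7 in TRP1low with K8. Ccl5, a transcript known for its abundance in memory and effector CD8 T cells, was at percentiles 50.1 and 48.3 with M9 and K8 in TRP1high and 35.8 and 41.3 with M9 and K8 in TRP1low. The 6 genes together held 252 reads per M in TRP1high with M9 and 30.3 in TRP1high with K8, and 338 in TRP1low with M9 and 197 in TRP1low with K8. Xcl1 held 24.4% of these reads with M9 (95% Wilson interval 23.6 to 25.3) and 19.5% with K8 (17.4 to 21.8) in TRP1high, and 21.1% with M9 (20.5 to 21.8) and 57.3% with K8 (56.0 to 58.5) in TRP1low.

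Patterns over the 4 libraries were compared by the root mean square distance of log2 values centred on each gene's mean, among 10047 genes averaging 100 normalized counts or more. Distances over 4 libraries describe likeness in these libraries alone. The nearest genes to Ccl3 were Spin4 (0.25), Ccl4 (0.33) and the transcribed pseudogene C920009B18Rik (0.35), and those to Ccl4 were C920009B18Rik (0.14), Spin4 (0.20) and Slc9b2 (0.21). The nearest gene to Ccl9 was Xcl1 (0.53), followed by Ifng, the interferon gamma gene (0.56), and Gm28437 (0.72). For Xcl1 they were Gm28437 (0.42), Pcsk1 (0.42) and Ifng (0.538). Ccl9 was slightly closer to Xcl1 than Ifng was (0.535), but averages under 100 normalized counts and so was not a candidate. Gm28437 and C920009B18Rik are annotated as pseudogenes, whose reads may be shared with other genes. Ccl5 was nearest to H2-Q6 (0.06), Xylt2 (0.09) and Dcxr (0.11), and Ccl1 had no close gene, with Lgals3 (1.199), Stard13 (1.199) and Kit (1.28) as the nearest.

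Of 12 other chemokine genes in the files, M9 was past 2-fold above K8 for 1 and below for 3 in TRP1high, and above for 0 and below for 5 in TRP1low. The shares over all genes tested were 5.14% above and 4.73% below in TRP1high, and 7.67% above and 7.43% below in TRP1low. The median log2 difference of the 12 genes was -0.91 in TRP1high and -1.04 in TRP1low, against -0.02 and 0.02 over all genes tested. Both medians rest in part on genes near the floor. In TRP1high with M9 and K8, Ccl28 had 2 and 6 reads, Cxcl11 1 and 5, Cx3cl1 0 and 2, and Ppbp 0 in both. In TRP1low with M9 and K8, Cxcl9 had 1 and 4 reads and Cxcl16 5 and 6. Ccl22, a ligand of CCR4, was the 1 gene past 2-fold lower in both, at log2 0.00 with M9 and 3.85 with K8 in TRP1high and at 0.65 with M9 and 4.83 with K8 in TRP1low. Cxcl10, an interferon-induced ligand of CXCR3, stood at 4.83 with M9 and 5.41 with K8 in TRP1high and at 3.95 with M9 and 8.05 with K8 in TRP1low. Ppbp, a platelet chemokine, was at 0 in 3 libraries and at 4.60 in TRP1low with K8, the library with the Ccl1 reads. Mif, the macrophage migration inhibitory factor, stood at 15.20 with M9 and 14.75 with K8 in TRP1high and at 14.88 with M9 and 14.08 with K8 in TRP1low.

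**Figure D5:**
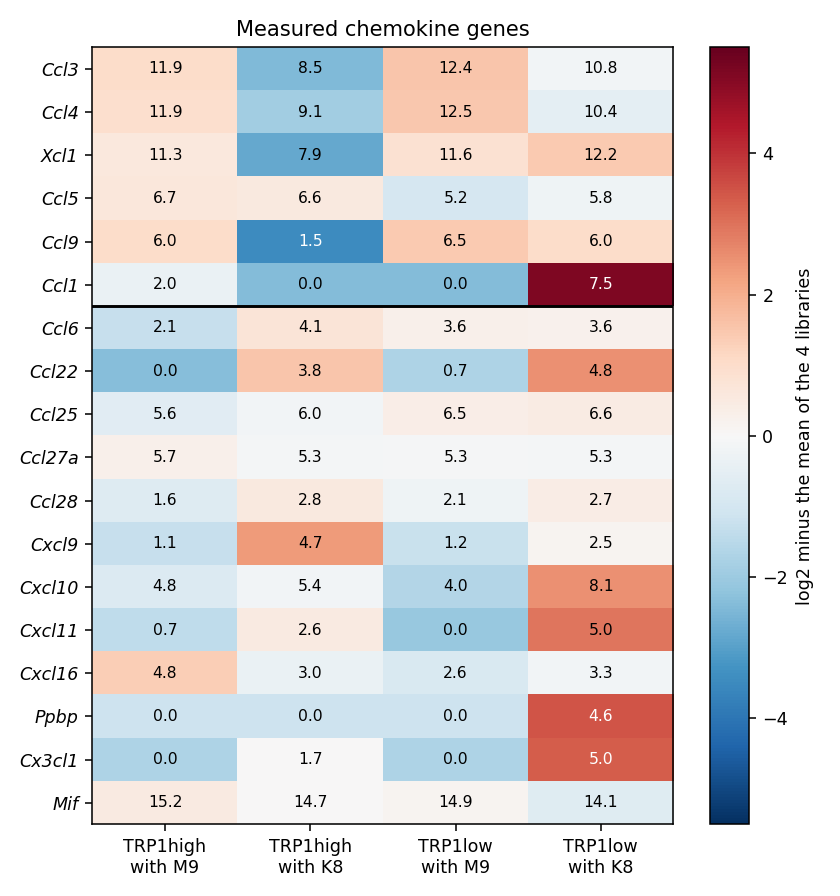
Chemokine genes (rows, the 6 described here above the line and 12 others below it) in the 4 libraries (columns). Numbers are log2 of the normalized count plus 1, and colours are that value minus the gene's mean over the 4 libraries. Ccl1, Cxcl10, Cxcl11, Ppbp and Cx3cl1 are each highest in TRP1low with K8.

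Ccr8, the receptor for Ccl1, stood at 4.99 with M9 and 2.32 with K8 in TRP1high and at 4.82 with M9 and 7.13 with K8 in TRP1low. Like Xcl1, it was lowest in TRP1high with K8 and highest in TRP1low with K8. Xcr1, the receptor for Xcl1, stood at 1.57 with M9 and 1.998 with K8 in TRP1high, at or under the floor, and at 3.38 with M9 and 4.60 with K8 in TRP1low.

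For 10 of 18 genes induced by TCR signals, M9 was past 2-fold above K8 in TRP1high, with 0 below, and in TRP1low 5 were above and 1 below. Over all genes tested, 5.14% were above and 4.73% below in TRP1high, and 7.67% above and 7.43% below in TRP1low. The median log2 difference of the 18 genes was 1.24 in TRP1high and 0.70 in TRP1low, against -0.02 and 0.02 over all genes tested. Nr4a2 (1.84 and 1.61), Nr4a3 (1.69 and 2.98), nuclear receptors induced by TCR signals, and Fosl2 (2.34 and 1.83), an AP-1 subunit, passed 2-fold with M9 in both TCRs, with log2 differences given for TRP1high and then TRP1low. Ifng stood at 12.74 with M9 and 9.70 with K8 in TRP1high and at 13.76 with M9 and 12.89 with K8 in TRP1low, and was the 1 gene of the list that TRP1high held past 2-fold below TRP1low under both peptides. Nr4a2 (3.76 with M9 and 3.53 with K8) and Fosl2 (1.75 with M9 and 1.24 with K8) passed 2-fold above TRP1low under both. Csf2, which encodes GM-CSF, had an M9 minus K8 difference of 1.89 in TRP1high, from 14 reads against 3, and of -2.11 in TRP1low. With K8, TRP1high was past 2-fold above TRP1low for 5 of these 18 genes and below for 4 (Ifng, Il2, Csf2 and Egr2), where 10.6% of all genes tested were above and 8.35% below.

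Of 17 transcription factor genes linked to chemokine genes, 2 were past 2-fold above and 3 below in TRP1high with M9, and 0 above and 1 below in TRP1low. These counts stand beside 5.14% above and 4.73% below of all genes tested in TRP1high, and 7.67% above and 7.43% below in TRP1low. The median difference of the 17 genes was 0.05 log2 in TRP1high and 0.19 in TRP1low, against -0.02 and 0.02 over all genes tested. Tbx21, which encodes T-bet, differed by 0.27 in TRP1high and 0.28 in TRP1low. Rel, the NF-kB subunit c-Rel, differed by 1.28 in TRP1high and 0.02 in TRP1low. Klf13, known in human T cells as a regulator of CCL5, differed by 0.05 and 0.15 with peptide, and was 0.74 and 0.84 higher in TRP1high than in TRP1low with M9 and K8. Klf2 passed 2-fold below K8 in both TCRs (-1.22 in TRP1high and -2.14 in TRP1low). Runx3, a factor of the CD8 lineage, passed 2-fold above TRP1low under both peptides (1.09 with M9 and 1.80 with K8).

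Within 300 kb of the chemokine genes, the files hold 12 other genes, of which 11 were above the floor in a library. Past 2-fold, 0 of the 11 were above K8 in either TCR, while 2 were below in TRP1high and 1 in TRP1low. Of all genes tested, 5.14% were above and 4.73% below in TRP1high, and 7.67% above and 7.43% below in TRP1low. Distances here run from start to start of the GENCODE gene models, also for Ccl1. Ccl6, a chemokine gene 14.5 kb from Ccl9, had 3 reads with M9 and 16 with K8 in TRP1high, and 11 with M9 and 8 with K8 in TRP1low. Taf15, 57.4 kb from Ccl5, differed by -0.16 and 0.21 log2 with peptide in TRP1high and TRP1low, and Heatr6, 91.1 kb from Ccl4, by 0.10 and 0.36. In the comparison of TCRs with K8, 0 of the 11 neighbours were past 2-fold lower in TRP1high, against 8.35% of all genes tested. With 11 genes, a count of 0 cannot be told apart from that share.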

How the data were processed

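RNA was sequenced from sorted T cells in 4 libraries, 1 for each TCR and peptide, grouped by the sample titles. The deposited values are log2 normalized counts, per the file headers, 1 per gene. The smallest value was 0, and after undoing the logarithm low values lay at multiples of 1 step per library, read as 1 read. Between 56.3% and 56.5% of values under 50 lay within 0.01 of a whole read, so whole reads were not recovered and no count test was run. The submitters' processing notes name Salmon 0.8.2, DESeq2 1.20.0 and mm10, while settings and annotation were not given in the sources used here. Of 16338 rows, 20 have date-like names and 16196 matched a GENCODE M21 symbol, which gave positions and transcript lengths.

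The 16102 genes averaging 1 normalized count or more were tested. Each pair of libraries was compared by log2 difference, and a gene was counted at 2-fold or more if either library had 10 or more normalized counts, on the log2(value + 1) scale. Folds of named genes are ratios without the added 1. Reads were rounded for 95% exact intervals of ratios and Wilson intervals of shares. Intervals of the difference between peptide differences use the normal approximation to Poisson counts. limma 3.58.1 in R 4.3.3 fitted TCR and peptide additively (trend and robust off), with Benjamini-Hochberg adjustment over all genes at 0.05. The scripts were tested on simulated data. Nearest patterns were the 3 genes of smallest distance per member. List genes past 2-fold with 1 direction in both pairs were named, with B cell and other marker genes given as sums; other named list genes, neighbours and examples were chosen after their values were seen. The members and lists were chosen with earlier results of these data known. Promoter sequences are from RefSeq (GRCm38.p6), for 4 of 6 members. The alternatives were other scalings, pseudocount, floor, thresholds and filters. Some listed genes are not reported here.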

Additional observations from a re-analysis of the deposited data

Results flagged for a closer look

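Xcl1 is singled out because its peptide difference ran in opposite directions in the 2 TCRs: M9 minus K8 was 3.40 log2 in TRP1high and -0.596 in TRP1low. Each value comes from a single pair of libraries, and the difference between them was not tested against replicates.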

How the results depend on the processing

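No paired analysis was possible because each group holds 1 library and the labels give no replicate numbers to use as a block. The additive limma model, with TCR and peptide as terms, compares the peptides within each TCR. For the same reason no library could be left out within a group. Under the alternatives run, the counts of members changed by over 1.5 times in 4 cases, all of them from the fold threshold, while 86 other counts did not. Dropping the mean filter could not change a 2-fold count, as a counted gene has 10 or more normalized counts in 1 library. Raising values to the floor could not change a 2-fold count of a pair of libraries either. The highest floor, 4.10 normalized counts, is more than 2-fold under 10 on the log2(value + 1) scale. At 1.5-fold, 3 members were lower with M9 than with K8 in TRP1low (1 at 2-fold). With K8, 1 was higher in TRP1high than in TRP1low (0 at 2-fold). At 4-fold, 1 was higher with M9 than with K8 in TRP1low (2 at 2-fold). With M9, 0 were higher in TRP1high than in TRP1low (1 at 2-fold). Over all genes, counts per comparison and direction ran from 761 to 1701 as reported, from 1536 to 2812 at 1.5-fold, from 275 to 629 at 4-fold, from 242 to 939 with at least 100 normalized counts in 1 library, and from 501 to 1381 with a pseudocount of 10.

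Of the log2 differences of single members, 159 were counted as unmoved, 7 moved and 0 changed sign. Those outside limma were counted as unmoved within counting error or on the same side of the threshold. The 7 were values of Ccl1 and Ccl9, the members near the floor: a pseudocount of 10 gave Ccl9 2.63 for M9 against K8 in TRP1high and -2.65 for TRP1high against TRP1low with K8, and Ccl1 -4.26 in both comparisons with TRP1low with K8 and 4.64 for the difference of peptide differences. Raising values to the floor gave Ccl1 -5.46 (M9 against K8 in TRP1low) and -5.51 (TRP1high against TRP1low with K8). Among the 159 are limma differences under the trend (12), a mean of at least 100 (6) and no filter (12). Their values could not change, as these settings leave each gene's estimate as it was. In limma, 0 members passed adjustment under any alternative, with the lowest adjusted p 0.073 (Ccl4, peptide, with trend). Over all genes, the trend gave 5 calls by peptide and 260 by TCR, a mean of at least 100 gave 0 and 40, and a pseudocount of 10 gave 0 and 32. The mean of at least 100 leaves out Ccl1, Ccl5 and Ccl9. Counts of Ccl1, Ccl5 and Ccl9 are the limit of depth here.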
